A study of Mus musculus with 16 samples.

Results

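The Kruppel-like factors (KLFs) are transcription factors that bind GC-rich and CACCC sequences through zinc fingers at their carboxyl end, and 10 of them were followed here in mouse quadriceps: Klf2, Klf3, Klf4, Klf5, Klf6, Klf9, Klf10, Klf11, Klf13 and Klf15. They were taken by gene symbol from an expression table of 23970 symbols, and all 10 were present and passed the filter on low values that left 11256 genes for testing. Every mouse was a C57BL/6NTac male of 16 weeks. CON mice had eaten a control diet with 10% of energy from fat and HFD mice a high-fat diet with 60% of energy from fat, in both cases for 10 weeks. The CON-pre and HFD-pre mice were sampled under basal conditions after treadmill acclimatization and a fast. The CON-post and HFD-post mice were sampled 3 h after a graded treadmill run to exhaustion, which followed the same acclimatization and a 3 h fast. Each group had 4 mice and 1 polyA RNA library per mouse. The paper states that the pre groups fasted for the same period as the exercise groups. The post mice also had no food after the run, and it is not said whether the fast of the pre mice covered those hours. The run and any added hours without food therefore cannot be told apart.

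Members of the family differ mainly outside their zinc fingers, where some recruit corepressors and others coactivators, and the same sites can therefore be activated by one member and repressed by another. In skeletal muscle, KLF15 is known as a glucocorticoid-induced activator of genes for branched-chain amino acid and fatty acid use, KLF9 as another glucocorticoid-induced and clock-linked member, and KLF5 as a regulator of lipid-use genes and of muscle cell differentiation. KLF10 and KLF11 are transforming growth factor beta (TGF-beta) inducible repressors, KLF2 and KLF4 are best known from endothelial cells, where the kinase ERK5 and MEF2 factors drive KLF2, KLF3 is a CtBP-binding repressor, KLF6 is an injury- and growth-responsive activator, and KLF13 is a widely expressed member close to KLF9 in sequence.

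The promoters of Klf15, Klf6, Klf2 and Klf13 are shown because they hold examples of the short sequences searched for, which known upstream regulators use. RefSeq (GRCm38.p6) gave a promoter for 8 of the 10 members, and none for Klf5 and Klf10. The 250 bases before the RefSeq start of each gene are written 5' to 3' along the gene's own strand. In Klf15 (chr6:90462326-90462575, plus strand, within the outer bounds of the RefSeq gene at chr6:90461043-90491803) and Klf6 (chr13:5861239-5861488, plus strand) the capitals mark the E-box CACGTG, the sequence read by clock and MYC-type factors. In Klf2 (chr8:72318812-72319061, plus strand) they mark a match to the MEF2 consensus, and in Klf13 (chr7:63938916-63939165, minus strand) the GC box GGGCGG, seen here on the opposite strand.
Klf15: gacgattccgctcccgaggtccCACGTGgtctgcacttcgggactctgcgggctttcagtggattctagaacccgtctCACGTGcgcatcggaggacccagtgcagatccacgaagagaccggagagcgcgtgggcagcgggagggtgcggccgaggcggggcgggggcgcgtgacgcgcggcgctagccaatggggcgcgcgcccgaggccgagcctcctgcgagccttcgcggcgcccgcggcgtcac
Klf6: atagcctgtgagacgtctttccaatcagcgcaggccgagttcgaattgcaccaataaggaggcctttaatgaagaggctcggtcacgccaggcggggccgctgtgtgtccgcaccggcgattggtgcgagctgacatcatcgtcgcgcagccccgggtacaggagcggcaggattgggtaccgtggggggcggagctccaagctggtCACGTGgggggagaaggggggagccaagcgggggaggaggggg
Klf2: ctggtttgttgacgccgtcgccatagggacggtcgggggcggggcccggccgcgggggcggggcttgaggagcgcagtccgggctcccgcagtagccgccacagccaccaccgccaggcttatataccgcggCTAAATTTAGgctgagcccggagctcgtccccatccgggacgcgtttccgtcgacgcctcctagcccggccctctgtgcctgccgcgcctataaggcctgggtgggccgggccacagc
Klf13: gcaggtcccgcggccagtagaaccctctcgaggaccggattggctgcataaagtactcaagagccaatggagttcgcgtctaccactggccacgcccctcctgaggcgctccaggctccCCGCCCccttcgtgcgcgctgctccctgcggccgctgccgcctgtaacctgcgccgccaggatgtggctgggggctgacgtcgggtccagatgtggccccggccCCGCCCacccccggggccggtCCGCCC

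The E-box was present in 4 of the 8 promoters, those of Klf4, Klf6, Klf11 and Klf15, and in 6.02% of 32851 RefSeq mouse promoters searched on both strands over the same 250 bases. Klf15 held 2 copies, at -228 to -223 and at -172 to -167 from its start. The MEF2 match lay at -118 to -109 in Klf2 and was found in no other member, against 0.508% of all promoters. The GC box was in 7 of the 8 promoters (32.7% of all), the CACCC box CACCC in 5 (52.0%) and the CCAAT box CCAAT in 5 (33.8%). No member promoter held the glucocorticoid response element, searched as AGAACA, any 3 bases and TGTTC (0.0304% of all), the cAMP response element TGACGTCA (1.55%), the TATA box TATAAA (12.4%) or a serum response element (1.47%). GC boxes overlapped each other in Klf4 and Klf11 and shared bases with CACCC boxes in Klf3 and Klf13. A match is a string of letters in this window and was not tested for binding.

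The values are FPKM, mapped fragments divided by transcript length and by library size, so that levels can be set side by side between genes. The number of fragments behind each value is not in the table. Relative depth, read from the spacing of low FPKM values, ran from 0.707 to 1.12 of that of the first CON-pre library. The 10 skeletal muscle markers, such as Acta1 and Ckm, summed to 70541 to 76979 FPKM in CON-pre, 60824 to 71209 in CON-post, 61372 to 67041 in HFD-pre and 53782 to 65810 in HFD-post, so that CON-pre and HFD-pre did not overlap, and endothelial, fibroblast, macrophage and adipocyte markers were also present. In whole muscle, fewer cells of a type and less RNA per cell cannot be told apart. One library stood apart from its label: CON-pre replicate 4 lay at 3.13 on the first principal component, against -20.1 to -4.28 in the other 7 libraries taken before exercise and 3.55 to 16.3 in the 8 taken after it. Results that rest on it are given with and without it.

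Klf9 was the most abundant member by a wide margin. Its level was 48.7 ± 5.65 FPKM (SD, n = 16 libraries), rank 714 of the 11256 genes tested, and it alone made up between 43.1% and 54.2% of the FPKM summed over the 10 members. Klf15 followed at 15.8 ± 3.41 FPKM and Klf6 at 9.80 ± 2.37. Klf10 stood at 7.66 FPKM, Klf13 at 4.90, Klf4 at 4.69, Klf2 at 3.65, Klf3 at 3.43, Klf5 at 1.80 and Klf11 at 1.61. Only Klf9 and Klf15 were neighbours in this order with ranges that did not overlap. Klf15 was above Klf6 in 15 of 16 libraries and Klf3 above Klf5 in all 16, whereas Klf13 was above Klf4 in 9, Klf2 above Klf3 in 7 and Klf5 above Klf11 in 9, so those last 3 pairs had no clear order. The summed level was 91.9 ± 7.71 FPKM in CON-pre, 108 ± 7.52 in CON-post, 99.1 ± 11.2 in HFD-pre and 109 ± 10.3 in HFD-post (SD, n = 4 each).

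**Figure D1:**
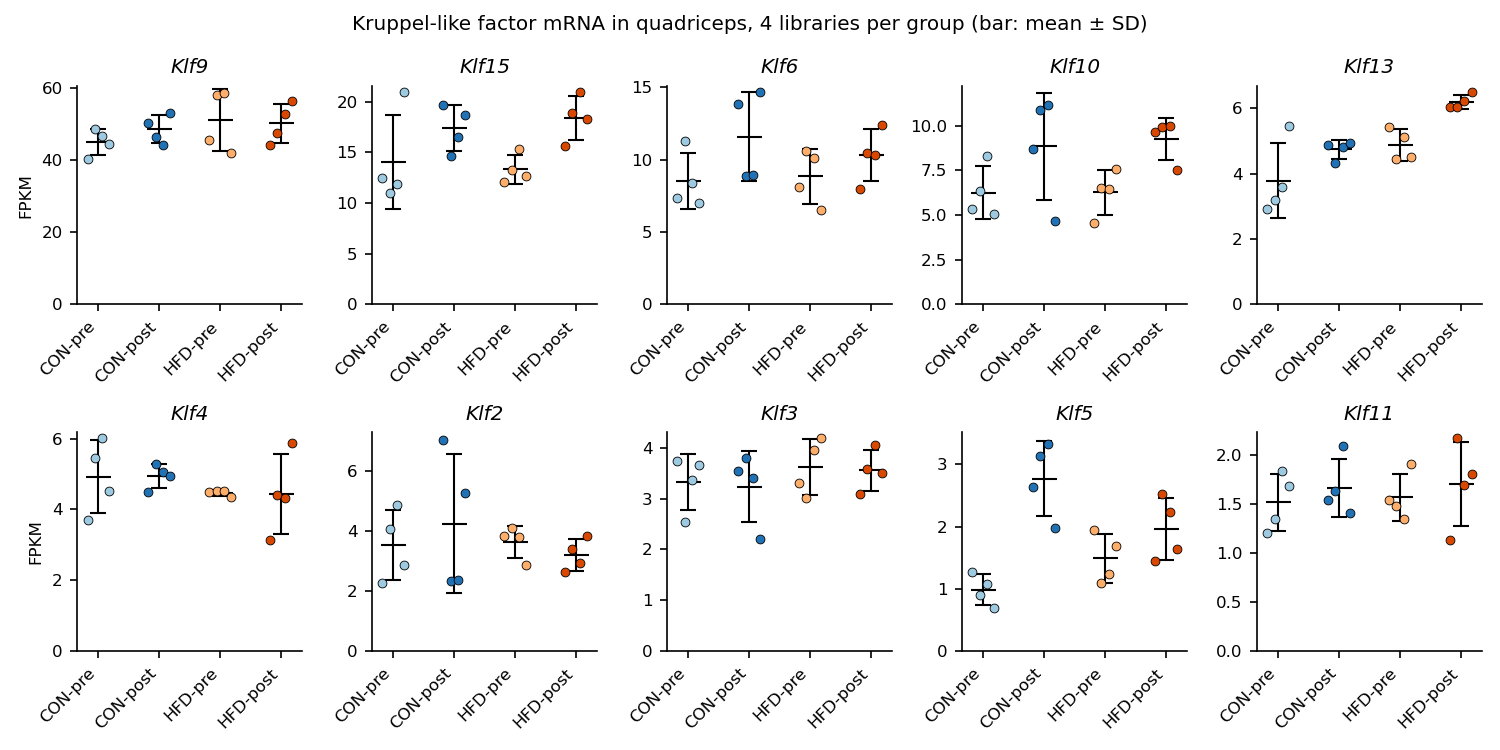
FPKM (vertical axes, each starting at 0) of the 10 Kruppel-like factors in the 4 groups, ordered by mean level; each point is a library, with replicates 1 to 4 from left to right, and the bars give the mean and SD. Klf5 in CON-post (1.97 to 3.34 FPKM) lies wholly above CON-pre (0.686 to 1.27), and the fourth CON-pre library is the highest CON-pre point for Klf13 and Klf15.

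Klf5 varied most. Across the 16 libraries its highest value was 4.86 times its lowest, against 3.09 for Klf2 and 1.46 for Klf9. Within groups, the pooled SD on the log2 scale was 0.28 for Klf5, 0.44 for Klf2, 0.36 for Klf10, 0.31 for Klf6 and 0.17 for Klf9, so that Klf2, with the widest spread inside its groups, was the member whose group means were least well fixed.

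Exercise was compared within each diet and averaged over both diets, with limma on log2(FPKM + 0.5), a scale on which the change of a low gene such as Klf5 is understated. Calls were made where p, adjusted by Benjamini-Hochberg over the 11256 genes, was under 0.05. Averaged over both diets, 1 of the 10 members, Klf5, rose and none fell, where 3.86% of all tested genes were called in either direction and 2.95% higher. At an unadjusted p under 0.05, 5 members (Klf5, Klf6, Klf10, Klf13 and Klf15) were higher after exercise and none was lower, against 18.5% of all genes in either direction and 11.7% in the higher direction. In CON mice alone 2 members passed this looser limit (11.1% of all genes) and in HFD mice alone 3 did (11.7%). The median log2 fold change was 0.20 over the members and 0.01 over all genes.

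Klf5 had the largest log2 fold change of the members in CON mice and averaged over diets, though not in HFD mice. In CON-pre its levels were 1.27, 0.899, 1.08 and 0.686 FPKM and in CON-post 2.63, 3.14, 3.34 and 1.97 FPKM, in the order of replicates 1 to 4. Every CON-post library was above every CON-pre library, a separation upward that 3.29% of all genes showed for this pair of groups. The log2 fold change was 1.14 ± 0.18 (SE), a 2.20-fold rise, with an adjusted p of 0.00353 by limma, and 1.11% of genes were called in this comparison.

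In HFD mice the Klf5 levels were closer together. HFD-pre libraries held 1.95, 1.08, 1.23 and 1.69 FPKM and HFD-post libraries 1.44, 2.52, 2.24 and 1.64 FPKM. These groups overlapped, and the log2 fold change of 0.31 ± 0.18 did not pass (adjusted p = 0.550, limma), its 95% interval running from -0.08 to 0.70. No member was called in this comparison, and 0.542% of genes were. The test of the difference itself, the diet by exercise interaction, gave -0.83 (95% interval -1.38 to -0.28), with an unadjusted p of 0.00590 and an adjusted p of 0.9999 by limma. No gene was called for this interaction (0% of 11256), and 3.16% had an unadjusted p under 0.05, so a smaller Klf5 response in HFD mice was not established across the table.

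Averaged over diets, the Klf5 difference was 0.72 ± 0.13 on the log2 scale (adjusted p = 0.00444, limma). An exact permutation test of the sample labels within diets gave an unadjusted p of 0.00327. Klf5 is also an epithelial gene, and 7 keratinocyte markers summed to 21.5 FPKM in CON-post replicate 1 and 41.1 FPKM in HFD-post replicate 3, against 2.65 to 8.59 in the other 14 libraries. Those libraries held 2.63 and 2.24 FPKM of Klf5. The averaged log2 fold change of Klf5 was 0.73 without the first and 0.69 without the second, and the part of these markers in the other libraries was not tested. Averaged over diets, 6 of 8 smooth muscle and pericyte markers were also higher after exercise (median 0.15), of which Tagln, named after its value was seen, was called (0.43 ± 0.10, adjusted p = 0.0215, limma). These markers summed to 121 to 124 FPKM in CON-pre, 127 to 148 in CON-post, 120 to 136 in HFD-pre and 128 to 145 in HFD-post, with none at 0 in every library, so that CON-post lay above CON-pre for this sum as for Klf5. Their part in the Klf5 values was not tested.

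**Figure D2:**
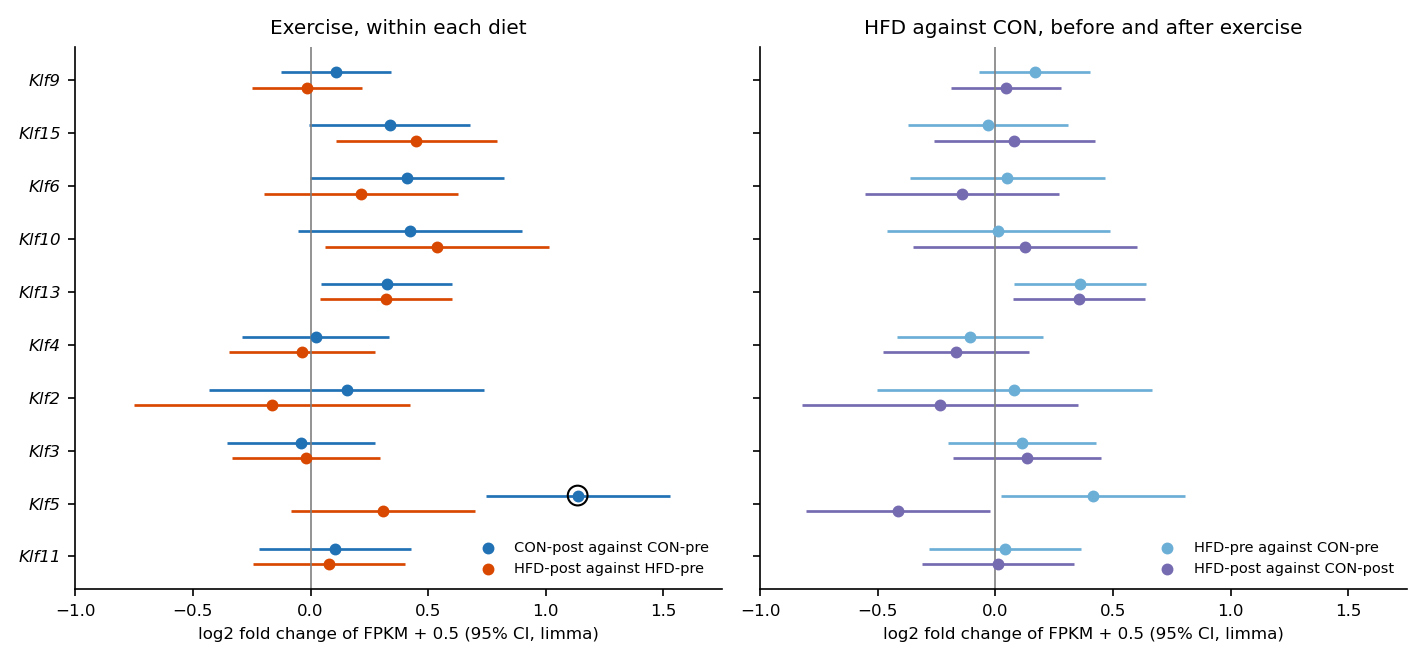
Log2 fold changes of FPKM + 0.5 with 95% confidence intervals from limma for the 10 Kruppel-like factors, after exercise within each diet (left) and in HFD against CON mice before and after exercise (right); ringed points passed an adjusted p of 0.05. Klf5 in CON mice, at 1.14, is the only ringed point.

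Klf15, the glucocorticoid-induced member, had a like difference in both diets that fell short of the threshold. CON-pre libraries held 12.4, 11.0, 11.9 and 21.0 FPKM and CON-post libraries 19.7, 14.7, 16.5 and 18.7 FPKM. The fourth CON-pre library was above all CON-post libraries, while the other 3 were below all of them. HFD-pre libraries held 12.1, 13.3, 15.3 and 12.7 FPKM and HFD-post libraries 15.6, 18.9, 20.9 and 18.3 FPKM, with no overlap, as in 4.72% of all genes in the higher direction for these groups.

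The log2 fold change of Klf15 was 0.34 ± 0.16 in CON mice (adjusted p = 0.456), 0.45 ± 0.16 in HFD mice (adjusted p = 0.277) and 0.39 ± 0.11 averaged (adjusted p = 0.0665), all by limma. An exact permutation test gave an unadjusted p of 0.0286 for the HFD pair and of 0.0106 for the average. The first is the smallest value that 4 against 4 can give, and any pair of groups without overlap gives it. Without CON-pre replicate 4, Klf15 passed in CON mice (0.54, adjusted p = 0.0248) and averaged over diets (0.49, adjusted p = 0.00156).

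Klf13 had the steadiest HFD-post group of any member. CON-pre libraries held 2.91, 3.18, 3.59 and 5.47 FPKM, CON-post libraries 4.88, 4.32, 4.81 and 4.95 FPKM, HFD-pre libraries 5.44, 4.45, 5.12 and 4.51 FPKM and HFD-post libraries 6.05, 6.03, 6.22 and 6.49 FPKM. All 4 HFD-post libraries were above the other 12. Again the fourth CON-pre library was high, above every CON-post value, and the other 3 CON-pre libraries were the lowest of all 16.

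With exercise averaged over both diets the Klf13 difference was 0.32 ± 0.09 on the log2 scale (adjusted p = 0.0685, limma), and it was 0.32 in CON mice and 0.32 in HFD mice taken singly. Leaving out CON-pre replicate 4 brought Klf13 past the threshold on average (0.41, adjusted p = 0.00114) and in CON mice (0.49, adjusted p = 0.00916), by limma. That library was the highest of CON-pre for Klf13 too, so leaving it out enlarges the difference, as for Klf15. That library also had a mean centred log2 level of 0.05 over 22 glucocorticoid receptor targets, against -0.54 to -0.37 in the other CON-pre libraries, -0.42 to 0.10 in HFD-pre, -0.03 to 0.52 in CON-post and 0.22 to 0.32 in HFD-post. HFD-pre replicate 3 held the 0.10, above CON-pre replicate 4. The mean of CON-pre replicate 4 was -0.39 over 15 immediate early genes, against -0.44 to -0.32 in the other CON-pre libraries. Its 8 adipocyte markers summed to 484 FPKM, against 377 to 435 in the other CON-pre libraries. Over the groups this sum ran from 379 to 571 FPKM in CON-post, 326 to 419 in HFD-pre and 343 to 668 in HFD-post, none of the 8 markers was at 0, and all 8 were higher after exercise on average, with none called. The part of these genes in the Klf13 and Klf15 values was not tested.

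Klf10, a TGF-beta inducible repressor, was higher after exercise in most but not all libraries. CON-pre libraries held 5.32, 6.36, 8.29 and 5.03 FPKM, CON-post libraries 8.69, 10.9, 11.2 and 4.64 FPKM, HFD-pre libraries 4.57, 6.54, 6.43 and 7.60 FPKM and HFD-post libraries 9.64, 9.94, 9.96 and 7.54 FPKM. Replicate 4 was the exception in both post groups: in CON-post it was below every CON-pre library, and in HFD-post it was just under the highest HFD-pre library. In HFD mice its log2 fold change of 0.54 ± 0.22 was the largest of the 10 members and did not pass (adjusted p = 0.349, limma). The averaged log2 fold change was 0.48 ± 0.16 (adjusted p = 0.106, limma), and it became 0.61 with an adjusted p of 0.00888 without CON-post replicate 4. That library held the lowest CON-post value of Klf10, so leaving it out enlarges the difference.

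Klf6 gave 7.35, 11.3, 8.39 and 7.01 FPKM in CON-pre, 13.8, 8.90, 8.95 and 14.6 in CON-post, 8.13, 10.6, 10.1 and 6.51 in HFD-pre and 7.97, 10.5, 10.3 and 12.4 in HFD-post. CON-post fell into a high pair (replicates 1 and 4) and a pair inside the range of CON-pre (replicates 2 and 3). The averaged log2 fold change of 0.31 ± 0.14 did not pass (adjusted p = 0.235, limma).

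The other 5 members gave no call with exercise. Averaged over diets, Klf9 had a log2 fold change of 0.05 (95% interval -0.12 to 0.21), Klf3 of -0.03 (-0.25 to 0.19), Klf4 of -0.01 (-0.23 to 0.21), Klf11 of 0.09 (-0.14 to 0.32) and Klf2 of 0.00 (-0.42 to 0.41). The interval of Klf9 was the narrowest and that of Klf2 the widest. Klf4 in HFD-pre was nearly the same in its 4 libraries, at 4.49, 4.51, 4.51 and 4.35 FPKM, whereas HFD-post ran from 3.14 to 5.89 FPKM. The 12 endothelial markers summed to 81.6 to 102 FPKM in CON-pre, 97.4 to 123 in CON-post, 94.4 to 111 in HFD-pre and 101 to 116 in HFD-post. Of the 12, 9 were higher after exercise on average, of which Pecam1 (0.36) and Robo4 (0.29), named after their values were seen, were called, and their part in the Klf2 and Klf4 levels was not tested.

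**Figure D3:**
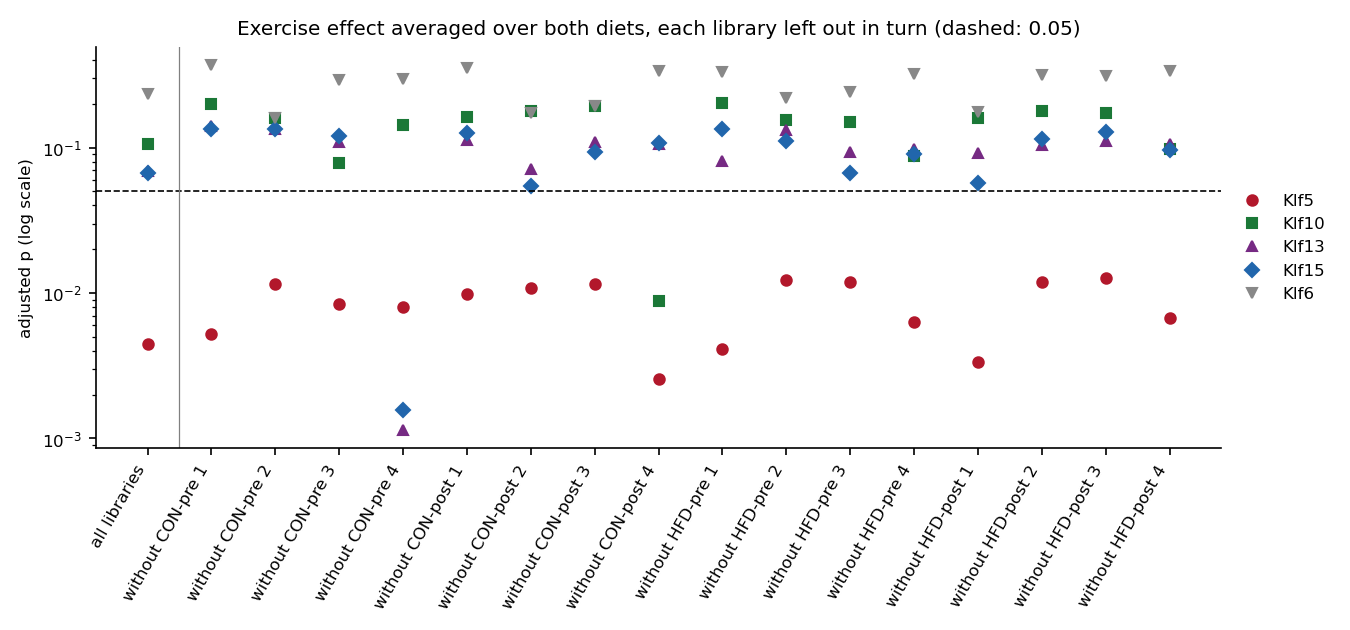
Adjusted p (vertical, log scale) of the exercise effect averaged over both diets for 5 Kruppel-like factors, with all 16 libraries (left) and with each library left out in turn (horizontal); the dashed line is 0.05. Klf5 stays under the line at every point, Klf13 and Klf15 cross it only without CON-pre replicate 4, and Klf10 only without CON-post replicate 4.

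Diet was compared before and after exercise and averaged over both states. No member was called in any of the 3 comparisons by limma, where 0.959% of all genes were called on average, 0.346% before exercise and 0.151% after it. At an unadjusted p under 0.05 there was 1 member on average (10.4% of all genes), 2 before exercise (8.25%) and 2 after it (6.29%). The median over the members was 0.02 on the log2 scale averaged over states, and that of all genes was -0.02.

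Klf13 was the member with the largest averaged difference between diets. Its mean was 3.79 ± 1.16 FPKM in CON-pre against 4.88 ± 0.481 in HFD-pre, and 4.74 ± 0.285 in CON-post against 6.20 ± 0.214 in HFD-post (SD, n = 4). HFD-post did not overlap CON-post, a separation upward that 1.88% of all genes showed. The averaged log2 difference, HFD minus CON, was 0.36 ± 0.09 with an unadjusted p of 0.00154 and an adjusted p of 0.0991 by limma. An exact permutation test within exercise states gave an unadjusted p of 0.00286. Without CON-pre replicate 4, Klf13 passed on average (0.44, adjusted p = 0.00134) and before exercise (0.53, adjusted p = 0.0187). Among the 8 adipocyte markers, Lep rose (2.54) and Cfd fell by 1.77 with HFD averaged over states, both named after their values were seen. Of the 8, 5 had a higher mean with HFD (median 0.14). No skeletal muscle, macrophage, endothelial, smooth muscle and pericyte or fibroblast marker was called in that comparison. Averaged over states, 2 of 10 skeletal muscle markers had a higher mean with HFD (median -0.14 on the log2 scale), 0 of 8 macrophage markers (median -0.27), 10 of 12 endothelial markers (median 0.10), 7 of 8 smooth muscle and pericyte markers (median 0.12) and 1 of 9 fibroblast markers (median -0.07). Before exercise the endothelial count was 12 of 12 (median 0.17). Macrophage markers summed to 103 to 172 FPKM in CON-pre, 93.2 to 122 in HFD-pre, 79.4 to 222 in CON-post and 74.3 to 158 in HFD-post, and fibroblast markers to 433 to 555, 412 to 538, 366 to 646 and 413 to 508 FPKM in the same order, with no marker of these lists at 0 in every library. The part of these markers in the Klf13 values was not tested.

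Klf5 had diet differences of opposite sign in the pre and post groups, neither of which passed. HFD minus CON was 0.42 on the log2 scale before exercise (0.984 FPKM in CON-pre, 1.49 in HFD-pre; unadjusted p = 0.0388, adjusted p = 0.565, limma) and -0.41 after it (2.77 in CON-post, 1.96 in HFD-post; unadjusted p = 0.0399, adjusted p = 0.754). The average was 0.00. The 7 keratinocyte markers summed to 5.93 to 8.59 FPKM in CON-pre and 3.44 to 5.07 in HFD-pre, which did not overlap. They summed to 5.30 to 21.5 in CON-post and 2.65 to 41.1 in HFD-post. Of 5 tested, 2 had a higher mean with HFD averaged over states (median -0.46), and none was called. Their part in the Klf5 values was not tested. For Klf15 the averaged difference was 0.02 (95% interval -0.22 to 0.26), for Klf9 0.10 (-0.06 to 0.27) and for Klf10 0.07 (-0.27 to 0.40).

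Some members varied together from mouse to mouse inside the groups, and these values are descriptions over 16 libraries that share their depth and tissue sampling. After subtraction of group means, Pearson's r on the log2 scale was 0.85 for Klf6 and Klf9, 0.80 for Klf2 and Klf6 and 0.77 for Klf13 and Klf15. Over all 16 libraries, with the group means left in, the same pairs gave 0.73, 0.70 and 0.72. The within-group value of Klf13 and Klf15 rested on CON-pre replicate 4, which was high in both genes: without that library it was 0.23, and Spearman's rho was 0.59 with it and 0.23 without it. Without the same library Klf6 and Klf9 gave 0.87 and Klf2 and Klf6 gave 0.80. In CON-post, Klf2, Klf6 and Klf9 were highest in replicates 1 and 4, with Klf2 at 7.03 and 5.25 FPKM there and at 2.33 and 2.36 in replicates 2 and 3. Klf5 and Klf10 had the reverse order, with their highest CON-post values in replicates 2 and 3. The 9 fibroblast markers summed to 366, 646, 606 and 422 FPKM in CON-post replicates 1 to 4 and the 8 macrophage markers to 79.4, 222, 152 and 135 FPKM, so both sums were also highest in replicates 2 and 3, and their part in these values was not tested. Klf5 and Klf9 had a within-group r of -0.55, and an r of -0.06 over all 16 libraries with the group means left in. Without HFD-post replicate 1 the within-group value was -0.79. Klf3 and Klf6 had a within-group r of -0.56 and an r of -0.51 over all 16 libraries. These pairs were picked from all pairs of members, and no test was attached.

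Over all tested genes and 16 libraries, the gene most like Klf5 was Tnfrsf12a, the receptor of the cytokine TWEAK (r = 0.93), followed by Usp28 (0.93) and Mcc (0.93). Klf15 was most like Foxo1, a transcription factor of the fasting response (r = 0.89), then Pink1 (0.87) and the lipid droplet gene Plin4 (0.87). Klf13 was most like Slc27a1, a fatty acid transport protein (0.89), Ip6k3 (0.88) and the lipid droplet gene Plin5 (0.87). Klf10 was closest to Lox, a collagen cross-linking enzyme (0.84), Skil, an inhibitor of SMAD proteins (0.84), and Ap2s1 (0.83). For Klf6 the closest were Mypn, a sarcomere protein gene (0.87), Myc (0.80) and Mast2 (0.78), and for Klf9 they were Rab7 (0.81), Mpv17 (0.77) and Dusp16 (0.77).

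The remaining members had Med4, Stk24 and Ccm2l (0.83, 0.81 and 0.80 with Klf2), Psmb3, Sgpp1 and Panx1 (0.80, 0.79 and 0.78 with Klf3), Pank2, Tbcel and Pard3 (0.81 each with Klf4) and Manbal, Dbn1 and Crip2 (0.83, 0.83 and 0.81 with Klf11) at the top. The highest of so many correlations is large by selection, and no test was attached to it. Within groups, r was 0.74 for Klf5 and Tnfrsf12a, 0.83 for Klf15 and Foxo1 and 0.64 for Klf13 and Slc27a1, and without CON-pre replicate 4 it was 0.69, 0.56 and 0.25. For Klf10 and Lox it was 0.81, and 0.49 without CON-post replicate 4. The high CON-pre replicate 4 was shared by Klf15 and Foxo1, with Foxo1 at 9.93 FPKM there and at 3.17 to 4.07 FPKM in the other CON-pre libraries.

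**Figure D4:**
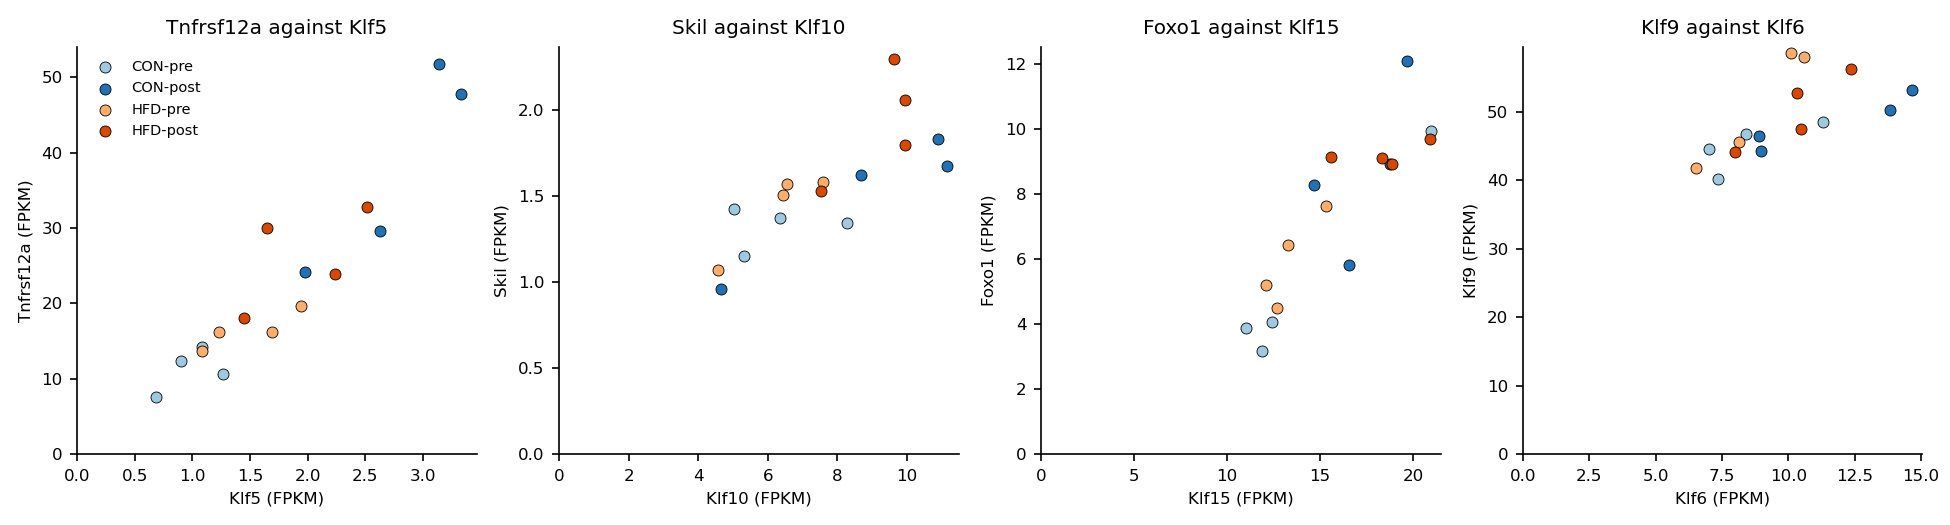
FPKM of 4 pairs of genes in the 16 libraries, colored by group, with both axes starting at 0: Tnfrsf12a against Klf5, Skil against Klf10, Foxo1 against Klf15, and Klf9 against Klf6. The highest values of Klf5 and Tnfrsf12a (3.34 and 51.8 FPKM) are CON-post points, and 1 CON-pre point (Klf15 at 21.0 and Foxo1 at 9.93 FPKM) lies among the post-exercise points.

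Genes tied to the members by known biology were read from lists by their counts. Of 22 genes of the glucocorticoid receptor and its targets, the pathway above Klf9 and Klf15, 10 rose and none fell with exercise averaged over both diets, where 2.95% of all tested genes were called higher and 3.86% in either direction, with a list median of 0.56 on the log2 scale against 0.01 over all genes. The largest were Mt2, a metallothionein (log2 fold change 1.76 ± 0.28, adjusted p = 0.00170), Trim63, a muscle ubiquitin ligase (1.12 ± 0.16, adjusted p = 0.000590), and Fkbp5, a receptor cochaperone (1.00 ± 0.22, adjusted p = 0.0180), all by limma. The count ran from 7 to 11 over 26 alternatives, with 7 when no filter on low values was applied or when CON-pre replicate 1, HFD-pre replicate 1 or HFD-pre replicate 2 was left out, and 11 without CON-pre replicate 4. These 3 genes were called under all 26.

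Of 22 tested metabolic genes known as KLF15 targets, 7 rose and none fell with exercise (median 0.21), where 2.95% of all tested genes were called higher and the median of all genes was 0.01, although Klf15 itself had not passed. They were led by Prodh, the first enzyme of proline breakdown (0.67 ± 0.18, adjusted p = 0.0495, limma), Pnpla2, a triglyceride lipase (0.43), and Lpl, lipoprotein lipase (0.37). The count ran from 2 to 8 over 26 alternatives. It was 2 with no filter on low values and also with CON-pre replicate 1, or else HFD-pre replicate 2, left out, it was 2 to 4 with any 1 library left out other than CON-pre replicates 3 and 4, CON-post replicates 1 and 2, HFD-pre replicate 4 and HFD-post replicate 2, and Pnpla2 and Acadl were the genes called under all 26, against 8 of 26 for Prodh and 15 of 26 for Lpl. With HFD averaged over exercise states 10 of the 22 were called higher and none lower. Over all tested genes 0.959% were called in either direction. The list median was 0.23, against -0.02 over all genes. Of the 22, 14 had a higher mean with HFD, and 3 were lower at an unadjusted p under 0.05 (limma). Klf15 itself had an averaged difference of 0.02, and its part in these values was not tested. The largest differences were in Fabp3, a fatty acid binding protein (1.22 ± 0.19, adjusted p = 0.00251, limma), Acadl, an acyl-CoA dehydrogenase (0.68), and Slc25a20, the acylcarnitine carrier (0.59).

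Immediate early and serum response genes, the class that Klf6 and Klf10 resemble in other cells, had 7 of 15 tested genes called higher and none lower with exercise averaged over both diets (median 0.48), where 2.95% of all tested genes were called higher and the median of all genes was 0.01. Nr4a3, a nuclear receptor, had a log2 fold change of 3.49 ± 0.18, Atf3, a stress-induced repressor, 2.66 ± 0.25, and Egr1, a zinc finger factor, 1.38 ± 0.25, each above the 0.72 of Klf5. Among 18 clock genes, 9 had a higher mean with exercise averaged over both diets, with a list median of -0.01. Nfil3 (0.60), Cry2 (0.50) and 1 further gene, Rora, were called higher, and Bhlhe40, which fell by 0.46, was called lower. Over all tested genes 3.86% were called in either direction. The list's count ran from 2 to 5 over the alternatives. Rora and Bhlhe40 passed in 8 and 13 of 26, against all 26 for Nfil3 and Cry2. Among TGF-beta pathway genes, Tgfbr3, a coreceptor, rose (0.39) and was called in all 26 alternatives.

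With exercise averaged over both diets, where 3.86% of all tested genes were called in either direction, 1 of 7 tested genes of the ERK5 and MEF2 pathway above Klf2 was called (list median -0.02, against 0.01 over all genes). This was Mef2c, which fell by 0.20 on the log2 scale, and the call was absent without CON-pre replicate 1. Of 8 tested endothelial targets of KLF2 and KLF4 (median 0.07), 1 was called, and Edn1, endothelin 1, rose (0.43); it was not tested when genes needed a mean of 1 FPKM. None of these lists apart from the KLF15 targets had a call for HFD averaged over exercise states.

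The remaining Sp and KLF genes of the table gave no call. Of 16 such genes, 6 passed the filter (Klf7, Klf12, Sp1, Sp2, Sp3 and Sp4). With exercise averaged over diets their log2 fold changes ran from -0.04 for Sp2 to 0.12 for Sp1. Klf12, a CtBP-binding repressor, was 1.61 ± 0.0856 FPKM in CON-pre and 1.07 ± 0.235 in HFD-pre (SD, n = 4), a log2 difference of -0.44 with an unadjusted p of 0.00292 and an adjusted p of 0.223 by limma. Klf17 and Sp8 were listed at 0 in every library, and Klf1, Klf8 and Klf14 had group means of at most 0.170 FPKM.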

How the data were processed

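The authors made stranded polyA libraries, aligned reads with TopHat to mm9 and deposited 1 FPKM value per gene and library from Cufflinks (builds and tools per the labels and the study's methods). Tool versions are not given in the sources used here. Loci printed in the authors' supplementary list of changed genes matched RefSeq GRCm38 for 692 of 692 symbols checked and mm9 for 113. Gene positions and promoters are therefore from GRCm38.p6. From the 24487 entries with FPKM values, 27 whose symbol had turned into a date were dropped (0.0771% of FPKM) and entries sharing a symbol (260 symbols) were summed.

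The 16 libraries were fitted, for genes averaging 0.5 FPKM or more, as log2(FPKM + 0.5) with limma 3.58.1 (R 4.3.3; 1 model of 4 groups, mean-variance trend, Benjamini-Hochberg adjustment); the code was tested on simulated data. FPKM without counts gives no counting interval, so the spread between mice is the only error used. Single members were also compared by two-sided exact permutation tests, whose p values were not adjusted over members or comparisons. The exercise comparisons within a diet share their groups with the diet comparisons. The members, gene lists and tests were chosen with earlier results of these data known. Named genes were the 10 members, up to 3 called genes with the largest change per list, every tested other Sp or KLF gene, and the 3 genes with the highest r to each member over 16 libraries; where a list had 4 calls, the fourth was also named. Reads from near-identical or overlapping genes cannot be separated further from these values. Alternatives were another pseudocount (0.1 or 1), no filter or a filter at 1 FPKM, scaling by quantiles, by the upper quartile or by median ratios, a fit of only the compared groups, no trend, array weights, a replicate block and each library left out. Some results of 2 gene lists are not reported here.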

Additional observations from a re-analysis of the deposited data

Results flagged for a closer look

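In 3 of 40 groups of 4 libraries, 1 library lay far from the other 3 by Dixon's test, where chance gives about 1 in 20. Klf15 in CON-pre replicate 4 was 21.0 FPKM, against 11.0 to 12.4 FPKM in the other CON-pre libraries. Klf10 in HFD-post replicate 4 was 7.54 FPKM, against 9.64 to 9.96 FPKM in the others. Klf4 in HFD-pre replicate 4 was 4.35 FPKM, against 4.49 to 4.51 FPKM in the others, a small gap in a group whose other 3 values were almost equal.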

How the results depend on the processing

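Klf5 passed in CON-post against CON-pre under all 27 alternatives (log2 0.92 to 1.41, adjusted p 0.00110 to 0.0204, limma) and averaged over diets under all 26 (0.58 to 0.89). Its interaction was called under none of 26 (-1.03 to -0.67, unadjusted p 0.00143 to 0.0152). Alternatives were computed for all 10 members averaged over diets or states, for Klf5, Klf6, Klf10, Klf13 and Klf15 within a diet, for Klf5 and Klf13 within an exercise state, and for the interaction of Klf5. Of these 924 values, 868 kept direction and side of the threshold, 10 passed it newly and 46 changed sign. With array weights, which give libraries unequal weight, 3 members were called with exercise averaged (Klf5, Klf13 at adjusted p = 0.0341 and Klf15 at 0.0279, limma) and 1 with HFD averaged (Klf13, 0.0430). Leaving out 1 library each, the number called ranged from 1 to 3 with exercise averaged (3 without CON-pre replicate 4, 2 without CON-post replicate 4) and from 1 to 3 in CON-post against CON-pre. It ranged from 0 to 1 with HFD averaged and in HFD-pre against CON-pre (1 without CON-pre replicate 4 in both). With exercise averaged, 591 of all 11256 genes were called with array weights, against 435 in the main fit. Without CON-pre replicate 4 this number was 566, and without CON-post replicate 4 it was 389. In CON-post against CON-pre, 187 genes were called without CON-pre replicate 4, against 125. With HFD averaged, 137 were called with array weights and 102 without CON-pre replicate 4, against 108. In HFD-pre against CON-pre, 36 were called without that library, against 39.

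The 46 sign changes were in averaged comparisons. With exercise averaged, Klf2 went from -0.0046 to 0.00016 (pseudocount 1), Klf4 to 0.0367 (array weights) and Klf9 to -0.0134 (quantile normalization). With HFD averaged, Klf5 went to -0.0141 (pseudocount 1) and, with array weights, to -0.0209, Klf2 to 0.0177 and Klf6 to 0.0231. Leave-one-out ranges with exercise averaged were -0.138 to 0.0978 for Klf2, -0.0835 to 0.0441 for Klf3 and -0.0736 to 0.0617 for Klf4. With HFD averaged they were -0.180 to 0.0558 for Klf2, -0.0625 to 0.0542 for Klf5, -0.101 to 0.0221 for Klf6, -0.0632 to 0.136 for Klf10, -0.0254 to 0.0929 for Klf11 and -0.0253 to 0.125 for Klf15.

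Over all genes, 332 of 435 calls with exercise averaged were higher, against 285 of 500 under upper-quartile, 309 of 485 under median-of-ratios and 289 of 533 under quantile scaling; Klf5, Klf6, Klf10, Klf13 and Klf15 stayed higher under each. Counts for gene lists under these alternatives, and correlations with a library left out, were chosen after seeing the data. The labels do not say that a replicate number is shared between groups, so the numbers were not taken as pairs. Same-numbered libraries correlated at -0.22 to 0.21 in 24 pairs, and 7 of 16 correlated best with their own number, which does not decide the question. With a replicate block the member counts stayed at 1 with exercise averaged, 1 in CON-post against CON-pre and 0 elsewhere, and 328 genes in all were called with exercise averaged. With 4 mice a group and no counts, values of 1 to 2 FPKM (Klf5, Klf11) have an unknown counting error.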
